A study of Schizosaccharomyces pombe with 24 samples.

Results

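The 7 septin genes of fission yeast, spn1 to spn7, were followed in 24 expression arrays of strains that lack histone acetyltransferases. They were chosen by name as the genes of the septin family, 4 vegetative septins (spn1 to spn4) and 3 meiotic septins (spn5 to spn7), out of 4981 features tested. All 7 were measured, each by 1 probe set. The annotated loci are SPAC4F10.11 for spn1, SPAC821.06 for spn2, SPBC16A3.01 for spn3, SPAC9G1.11C for spn4, SPAC24C9.15C for spn5, SPCC188.12 for spn6 and SPBC19F8.01C for spn7. RefSeq lists mde9 and meu28 as other names of spn5 and mde8 as another name of spn7.

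Total RNA came from asynchronous cultures grown at 30 °C, and the values are log2 intensities per probe set. Gcn5, Mst2, Elp3 and Mst1 are histone acetyltransferases of different complexes. There were 3 arrays for each of 7 strains, namely wild type, the single deletions Δgcn5, Δmst2 and Δelp3, the conditional mutant mst1-ts, and the double deletions Δgcn5 Δmst2 and Δmst2 Δelp3. The double deletion Δgcn5 Δelp3 was hybridised to 2 arrays, and the strain lacking all 3 genes, called the triple mutant here, to 1. In mst1-ts the essential gene mst1 is deleted and a temperature-sensitive copy is expressed from an nmt promoter at leu1. The titles of its arrays name mst2, whereas their genotype labels name mst1. By the strain list of the study, the strains derive from a leu1 ura4 ade6 background, the deletions carry KanMX or ura4 cassettes, the listed single Δgcn5 strains are h-, and his3-D1 is listed for a Δgcn5 strain and a Δgcn5 Δmst2 strain but not for the wild types. Wild-type and Δgcn5 Δmst2 strains of both mating types are listed, and the labels do not say which were used. The figure legends for the array results name a listed Δgcn5 strain that is h- with his3-D1. The Δgcn5 Δmst2 strain named there is h+ with his3-D1, and wild type and the other strains are h+ without it. The methods describe replicates as independent isolates.

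Septins are GTP-binding proteins that assemble into filaments and rings on membranes. In vegetative fission yeast, Spn1 to Spn4 form a ring at the division site late in the cell cycle, where it helps to direct the enzymes that separate the daughter cells. During sporulation, Spn5, Spn6 and Spn7 act with Spn2 at the forespore membrane, the membrane that encloses each new spore. The meiotic septin genes are known for low expression in vegetative growth and induction during meiosis.

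Before the septins are described, 3 libraries need naming. The library labelled Δgcn5 replicate 2 had gcn5 at 10.93 and mst2 at 5.21, and the library labelled Δmst2 replicate 2 had gcn5 at 5.43 and mst2 at 10.01. Their his3 levels, 13.69 and 5.90, and ura4 levels, 13.30 and 7.18, also lay at the level of the other group. Whether the 2 libraries were exchanged was not tested. Each thus went against its label in the deleted gene, and they are called the 2 doubted libraries here. Main results are given with all 24 arrays and without these 2. The third is wild-type replicate 2. The listed wild types carry ura4-D18, yet ura4 read 12.85 there. Replicates 1 and 3 of wild type gave 7.40 and 7.45, and strains with mst2 replaced by ura4 gave 12.64 to 13.54 outside the doubted libraries. The mst2 level of wild-type replicate 2, 8.73, lay between the other wild-type arrays (9.89 and 10.13) and the strains lacking mst2. It enters every comparison with wild type, and leaving it out is described where a call changed. Outside the 2 doubted libraries, the deleted genes lay between 5.14 and 6.98 in the strains lacking them, below every array of a strain that keeps the gene. In mst1-ts the mst1 transcript was at 11.38 to 11.94, above the 10.09 to 10.58 of wild type.

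A second limit concerns elp3. All 9 arrays of strains lacking elp3 were labelled with 1 kit (MessageAmp II, from 1 µg of RNA) on the second of 2 dates, and the other 15 arrays with another kit (one-cycle labelling, from 10 µg), 14 of them on the first date. Loss of elp3 and the kit cannot be told apart in comparisons with wild type. Comparisons among strains lacking elp3, and among the 15 other arrays, are within 1 kit.

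The vegetative and meiotic septins differed in how far they varied. Over the 24 arrays the transcript of spn3 spanned 0.30 log2 units, spn2 0.99, spn4 1.01 and spn1 1.28. The spans of the meiotic members were 2.05 for spn7, 3.51 for spn5 and 4.13 for spn6. Of 24 pairs of a meiotic septin and a mutant compared with wild type, 7 rose and 1 fell, where 8.97% of all features over the same 8 comparisons rose and 8.19% fell. Of 32 such pairs of a vegetative septin and a mutant, none rose and 6 fell. Rose and fell here mean a limma p under 0.05 after Benjamini-Hochberg adjustment over all features. Without the 2 doubted libraries the meiotic counts were 14 and 2, and the vegetative counts were the same, with 11.5% of all features rising and 10.3% falling. With wild-type replicate 2 also left out the meiotic counts were 13 and 2. With only that array left out they were 6 and 1. All 8 comparisons share the wild-type arrays.

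**Figure D1:**
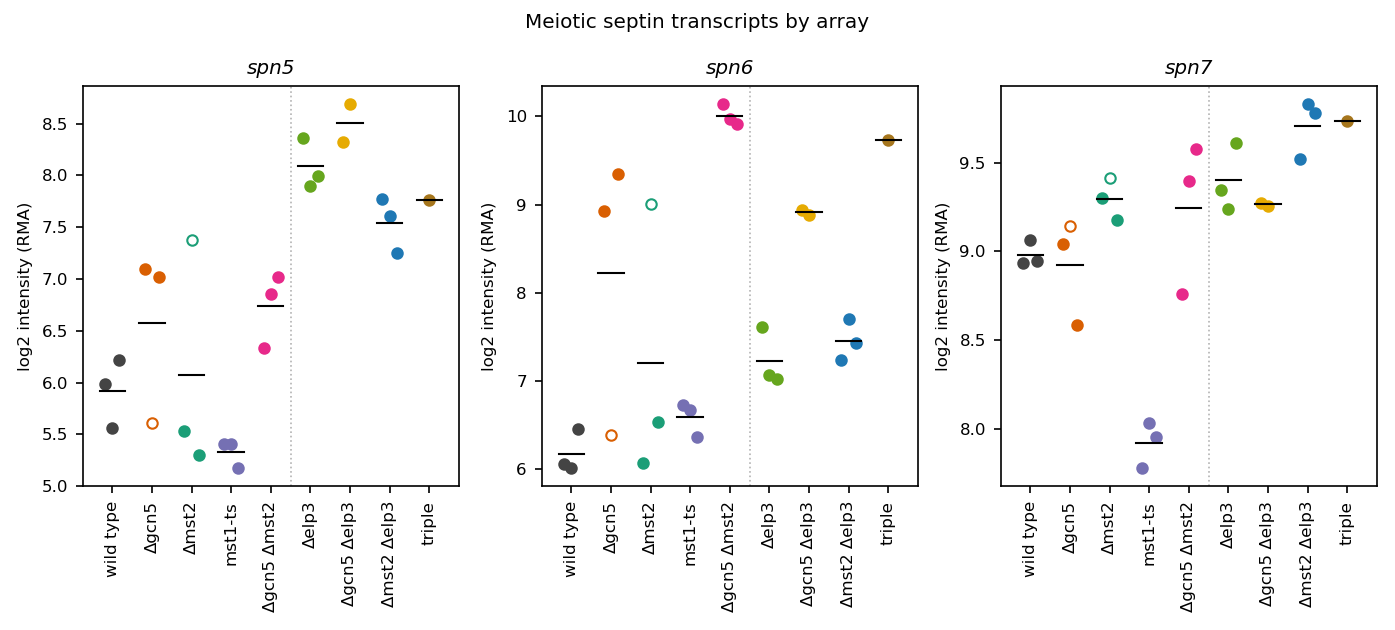
Level of spn5, spn6 and spn7 in each array (log2 intensity, y axis, with a different range in each panel) by strain (x axis). Points are arrays, lines are group means, open points are the 2 libraries that went against their labels, and strains right of the dotted line lack elp3 and were labelled with the other kit. The arrays lacking elp3 hold the 8 highest spn5 values, and the 3 arrays of Δgcn5 Δmst2 hold the 3 highest spn6 values.

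spn6 encodes a septin of the sporulation complex, and its transcript was highest in strains lacking gcn5. In wild type it lay at 6.06, 6.01 and 6.45. In Δgcn5 Δmst2 it lay at 10.14, 9.97 and 9.91, the highest values in the series. Every array of the double mutant thus stood more than 3 log2 units above every wild-type array. The wild-type values of spn6, and those of spn5, lay within the 5.14 to 6.98 read from the deleted genes, so neither transcript was shown to be above background in wild type. Their changes are given on the log2 scale of the measured intensity, with no fold of transcript. The rise of spn6 was 3.84 ± 0.63 (SE) (adjusted p = 0.000401), in a comparison in which 24.9% of all features were called. It was called under each alternative that kept this gene in the fit.

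In Δgcn5, spn6 lay at 8.93 and 9.35 in replicates 1 and 3, and at 6.39 in the library labelled replicate 2. In Δmst2 it lay at 6.06 and 6.53 in replicates 1 and 3, and at 9.01 in the library labelled replicate 2. The 2 libraries that went against their labels in gcn5 and mst2 were thus also the odd ones of their groups in spn6. With all arrays, the change was 2.05 ± 0.63 in Δgcn5 (adjusted p = 0.509) and 1.03 ± 0.63 in Δmst2 (adjusted p = 0.402), and none of the 7 septins passed in either mutant, against 0.12% and 0.161% of all features called. Without the 2 libraries, spn6 rose by 2.97 ± 0.21 in Δgcn5 (adjusted p = 6.72e-08), where 6.08% of features were called. The change in Δmst2 was then 0.12 ± 0.21 (95% interval -0.32 to 0.56, adjusted p = 0.705), with 0.582% of features called. Because RNA was taken from whole cultures, more transcript per cell and more cells that express the gene cannot be told apart. By the figure legends Δgcn5 is h- and wild type h+, and the part of mating type in spn6 was not tested.

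The strains lacking both gcn5 and elp3 were also high in spn6. Its values were 8.94 and 8.88 in Δgcn5 Δelp3 and 9.73 in the single array of the triple mutant. All 3 values exceeded those of Δelp3 (7.60, 7.06 and 7.02) and of Δmst2 Δelp3 (7.24, 7.70 and 7.43). Against wild type spn6 rose by 2.74 ± 0.71 in Δgcn5 Δelp3 (adjusted p = 0.0111) and by 3.56 ± 0.90 in the triple mutant (adjusted p = 0.0161), with 21.5% and 11.8% of features called. With either array of Δgcn5 Δelp3 left out, the first of these had adjusted p = 0.087 or 0.0741. The spread of the triple mutant, with its single array, was assumed to equal that of the other groups.

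Compared with Δelp3, within 1 kit and date, the change of spn6 was 1.68 ± 0.71 in Δgcn5 Δelp3 (adjusted p = 0.429) and 2.50 ± 0.90 in the triple mutant (adjusted p = 0.0881). No septin passed in either comparison, with 1.1% and 9.5% of features called. The doubted libraries are in neither comparison but enter the shared estimate of the spread. Without them, spn6 rose by 1.68 ± 0.21 in Δgcn5 Δelp3 (adjusted p = 0.000118) and by 2.50 ± 0.26 in the triple mutant (adjusted p = 9.15e-06), with 2.71% and 13.7% of features called. In Δmst2 Δelp3 against Δelp3, the spn6 difference was 0.23 ± 0.63 (95% interval -1.11 to 1.56), and no septin passed with all arrays (0.763% of features called) or without the 2 libraries (1.22%).

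The double mutant Δgcn5 Δmst2 also stood above each of its single mutants in spn6. Against Δmst2, spn6 rose by 2.81 ± 0.63 (adjusted p = 0.00611, 28.2% of features called), and by 3.71 ± 0.21 without the doubted libraries (adjusted p = 2.81e-09, 43.3% called). With all arrays of the first date only, the adjusted p of that comparison was 0.0641, and with only the arrays of both strains in the fit it was 0.125. Against Δgcn5 the difference was 1.79 ± 0.63 with all arrays (adjusted p = 0.0912, 7.45% called). Without the doubted libraries spn6 rose by 0.87 ± 0.21 (adjusted p = 0.0156, 7.21% called). The interaction term, which is the double-mutant change minus the changes of the 2 single mutants, was 0.76 ± 0.90 with all arrays (adjusted p = 0.747) and 0.74 ± 0.29 without the doubted libraries (adjusted p = 0.152). No septin passed in that interaction, where 1.39% and 3.63% of features were called. By the figure legends Δgcn5 is h- and Δgcn5 Δmst2 h+. That difference enters the comparison with Δgcn5 and does not cancel in the interaction, and its part was not tested.

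In Δelp3 the spn6 change of 1.06 ± 0.63 did not pass with all arrays (adjusted p = 0.246). It passed without the doubted libraries (1.06 ± 0.19, adjusted p = 0.000826, 26.5% of features called). In Δmst2 Δelp3 the change was 1.28 ± 0.63 (adjusted p = 0.158) with all arrays and rose by 1.28 ± 0.19 without the 2 libraries (adjusted p = 0.000174, 26.6% called). In mst1-ts, at 6.73, 6.67 and 6.36, spn6 differed from wild type by 0.41 ± 0.63 (adjusted p = 0.647).

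spn5 encodes another sporulation septin, and its transcript was highest in the strains lacking elp3. In wild type it lay at 5.99, 5.56 and 6.22. It lay at 8.36, 7.90 and 8.00 in Δelp3 and at 8.32 and 8.69 in Δgcn5 Δelp3. It lay at 7.77, 7.61 and 7.25 in Δmst2 Δelp3 and at 7.76 in the triple mutant. All 9 arrays lacking elp3 were above all wild-type arrays, and above 14 of the 15 arrays with elp3, the exception being the library labelled Δmst2 replicate 2 at 7.38.

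Against wild type, spn5 rose by 2.17 ± 0.43 in Δelp3 (adjusted p = 0.00193), with 21.5% of features called. The rise was 2.58 ± 0.48 in Δgcn5 Δelp3 (adjusted p = 0.00113) and 1.62 ± 0.43 in Δmst2 Δelp3 (adjusted p = 0.0125, 21.9% called). The value of 1.84 ± 0.61 in the triple mutant did not pass with all arrays (adjusted p = 0.0575). It passed without the doubted libraries (adjusted p = 0.000355), where 16.5% of features were called. Without wild-type replicate 2, the change in Δmst2 Δelp3 was 1.44 (adjusted p = 0.0532).

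With date as a covariate the 4 values of spn5 were 1.75 ± 0.79 in Δelp3 (adjusted p = 0.274), 2.16 ± 0.82 in Δgcn5 Δelp3 (adjusted p = 0.187), 1.20 ± 0.79 in Δmst2 Δelp3 (adjusted p = 0.454) and 1.42 ± 0.90 in the triple mutant (adjusted p = 0.464). No septin passed in these strains under that fit, in which 2.55%, 2.63%, 1.69% and 2.95% of features were called. The date term rests on the 3 arrays of Δgcn5 Δmst2, 2 of the first date and only 1 of the second. A deviation of that 1 array cannot be told apart from the date. These arrays share 1 kit, so the term holds no difference between the kits. Within the strains lacking elp3, spn5 did not pass in any comparison. Its difference from Δelp3 was 0.42 ± 0.48 in Δgcn5 Δelp3 (95% interval -0.59 to 1.42), -0.54 ± 0.43 in Δmst2 Δelp3 (-1.44 to 0.36) and -0.33 ± 0.61 in the triple mutant (-1.60 to 0.95).

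Smaller differences of spn5 were seen among the strains with elp3. In Δgcn5 it lay at 7.09 and 7.02 in replicates 1 and 3, and at 5.61 in the library labelled replicate 2. In Δmst2 it lay at 5.53 and 5.30 in replicates 1 and 3, and at 7.38 in the library labelled replicate 2. In Δgcn5 Δmst2 the values were 6.34, 6.86 and 7.02, all above wild type. Without the doubted libraries, spn5 rose by 1.14 ± 0.22 in Δgcn5 (adjusted p = 0.0049) and by 0.82 ± 0.20 in Δgcn5 Δmst2 (adjusted p = 0.00541, 30.3% of features called). With all arrays neither passed (0.65 ± 0.43, adjusted p = 0.822, and 0.82 ± 0.43, adjusted p = 0.174). In mst1-ts the 3 values, 5.41, 5.41 and 5.18, all lay under those of wild type. That change, -0.59, had an adjusted p of 0.31 with all arrays and 0.0268 without the doubted libraries, where 40.4% of features were called.

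**Figure D2:**
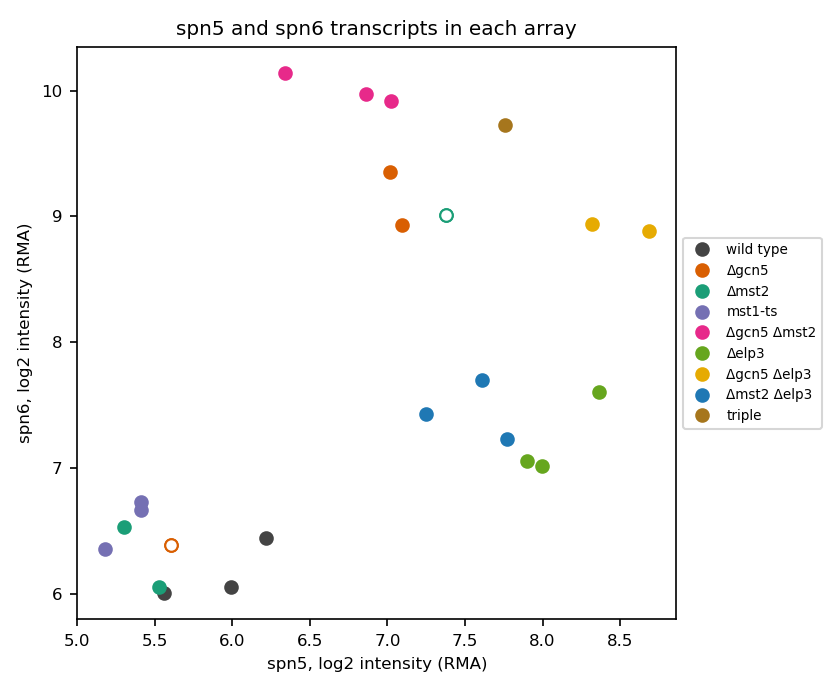
Level of spn5 (x axis) and of spn6 (y axis) in each of the 24 arrays, both as log2 intensity. Colours are strains and open points are the 2 libraries that went against their labels. All arrays lacking elp3, and no others, were labelled with the other kit. Leaving those out, arrays lacking gcn5 have spn6 at 8.88 or more and the others at 7.70 or less, while arrays lacking elp3 have spn5 at 7.25 or more and the others at 7.09 or less.

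The plot of spn5 against spn6 separates the strains along both axes. Leaving out the 2 doubted libraries, the 8 arrays lacking gcn5 had spn6 between 8.88 and 10.14, and the 14 others between 6.01 and 7.70. For spn5, the 9 arrays lacking elp3 lay between 7.25 and 8.69 and the 13 others between 5.18 and 7.09. Those 9 arrays are also the ones labelled with the other kit, so elp3 and kit cannot be told apart on this axis. How many of all features separate the arrays as fully was not counted, for either gene. Across the 24 arrays, which share strains, kits and dates, spn5 and spn6 correlated at r = 0.53, spn5 and spn7 at 0.63, spn2 and spn6 at 0.73, and spn1 and spn7 at 0.75, given here as descriptions.

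spn7 encodes the other sporulation septin, and its transcript was lowest in mst1-ts. Its wild-type values were 8.93, 9.06 and 8.94. In mst1-ts it lay at 7.78, 8.03 and 7.95, lower than in any other array of the series. It fell by 1.06 ± 0.18 there (2.08-fold, adjusted p = 0.000213), in the comparison with the most features called, 35.6%. The call held under each alternative at the p threshold that kept this gene in the fit, and the fall was smaller than the fold threshold named in the methods of the study, whether that is read as a ratio or in log2 units.

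The highest strain means of spn7 were those of the triple mutant, Δmst2 Δelp3 and Δelp3. The mean of Δmst2 (9.30) stood above that of Δgcn5 Δelp3 (9.27). In Δmst2 Δelp3, spn7 lay at 9.52, 9.83 and 9.78. It rose there by 0.73 ± 0.18 (1.66-fold, adjusted p = 0.00764). With date as a covariate the difference was 0.23 (adjusted p = 0.737). In Δelp3, at 9.35, 9.24 and 9.61, the change of 0.42 ± 0.18 did not pass (adjusted p = 0.0983). In the triple mutant, at 9.74, the change of 0.76 ± 0.25 had an adjusted p of 0.0583 with all arrays and 0.0467 without the doubted libraries, and 0.0578 with wild-type replicate 2 left out as well. The 3 values of Δgcn5 Δmst2 were spread from 8.76 to 9.58, around those of wild type.

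**Figure D3:**
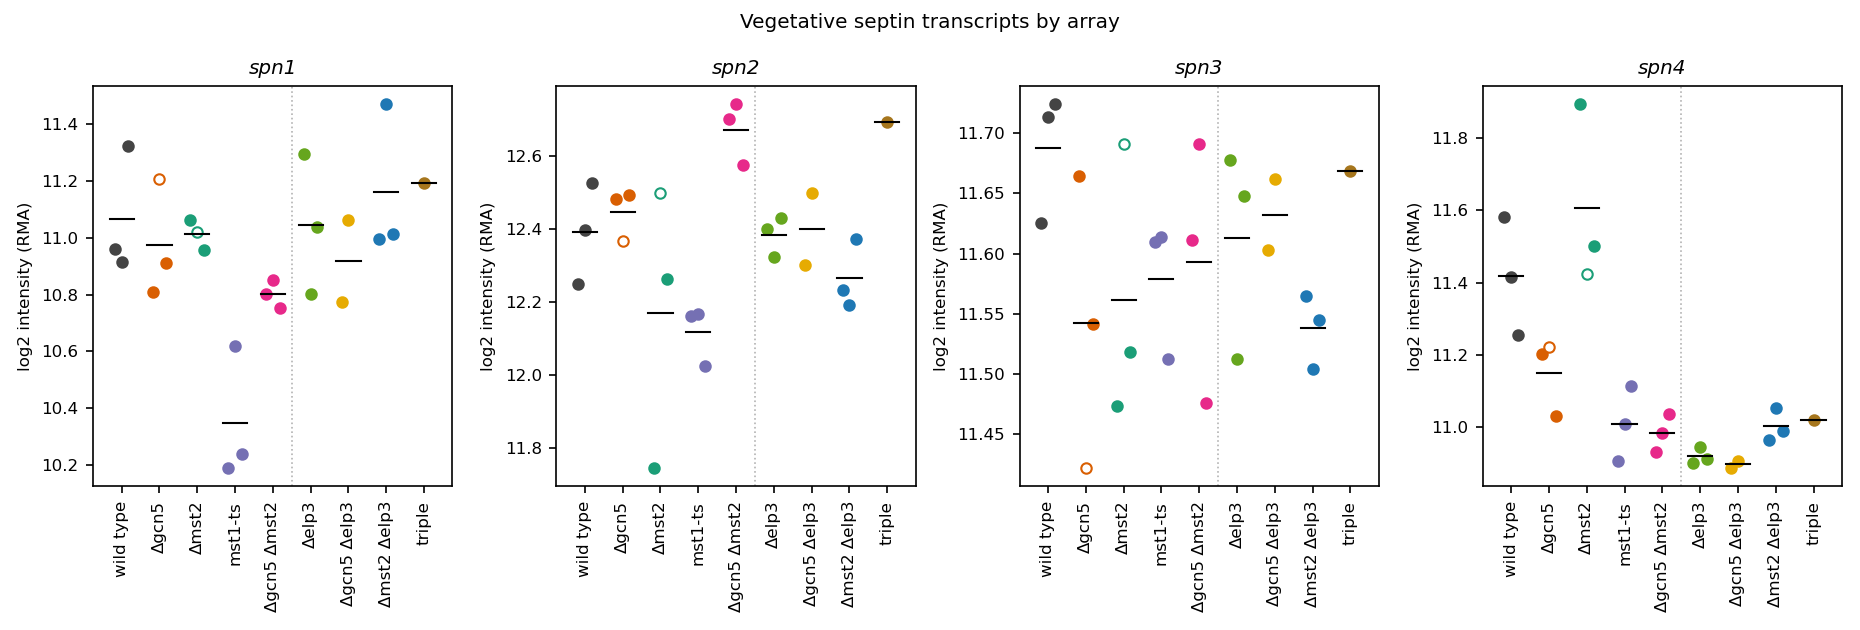
Level of spn1, spn2, spn3 and spn4 in each array (log2 intensity, y axis, with a different and narrower range in each panel than for the meiotic septins) by strain (x axis). Points are arrays, lines are group means, open points are the 2 libraries that went against their labels, and strains right of the dotted line lack elp3. spn4 lies between 11.25 and 11.58 in wild type and at or below 11.11 in mst1-ts, Δgcn5 Δmst2 and all strains lacking elp3.

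Among the vegetative septins, spn4 encodes a core subunit of the ring at the division site, and its transcript was lower in most mutants. It lay at 11.58, 11.41 and 11.25 in wild type and between 10.89 and 11.11 in all arrays of mst1-ts, Δgcn5 Δmst2 and the strains lacking elp3. The groups therefore did not overlap with wild type, and the share of all features that did the same was not counted. It fell by 0.50 ± 0.11 in Δelp3 (1.41-fold, adjusted p = 0.00432), by 0.52 ± 0.12 in Δgcn5 Δelp3 (adjusted p = 0.00686) and by 0.42 ± 0.11 in Δmst2 Δelp3 (adjusted p = 0.0134). Within 1 kit, it fell by 0.43 ± 0.11 in Δgcn5 Δmst2 (adjusted p = 0.00912) and by 0.41 ± 0.11 in mst1-ts (adjusted p = 0.00831). Without wild-type replicate 1, the highest of its group, the adjusted p was 0.0536 in mst1-ts, 0.0561 in Δgcn5 Δmst2 and 0.0679 in Δmst2 Δelp3.

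In Δgcn5, spn4 lay between 11.03 and 11.22, also below wild type, and the change of -0.27 ± 0.11 did not pass (adjusted p = 0.706), nor did that of -0.30 ± 0.12 without the doubted libraries (adjusted p = 0.162). In Δmst2 it lay between 11.42 and 11.89, which overlaps wild type. Against that strain, spn4 in Δgcn5 Δmst2 fell by 0.62 ± 0.11 (adjusted p = 0.00119), and by 0.72 ± 0.12 without the doubted libraries (adjusted p = 0.000241). With only the arrays of both strains in the fit, the adjusted p was 0.131. With the date covariate, its change of -0.58 in Δelp3 had an adjusted p of 0.152. The triple mutant, at 11.02, differed from wild type by -0.40 ± 0.16 (adjusted p = 0.117).

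spn1 encodes the other core subunit of the division ring and fell in mst1-ts. It lay at 10.19, 10.62 and 10.24 there and at 10.96, 10.91 and 11.32 in wild type. The fall was 0.72 ± 0.16 (1.64-fold, adjusted p = 0.0025), and it was called in all 36 alternatives at the adjusted p threshold. It was smaller than the fold threshold of the study, read as a ratio or in log2 units. In the other 7 mutants the change of spn1 ran from -0.26 to 0.13, and none passed.

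spn2, which serves both in the division ring and at the forespore membrane, passed in no mutant against wild type. Its highest levels were 12.57 to 12.74 in Δgcn5 Δmst2 and 12.69 in the triple mutant, against 12.25 to 12.53 in wild type. Against Δmst2, spn2 in Δgcn5 Δmst2 rose by 0.50 ± 0.14 (adjusted p = 0.0149), and by 0.67 ± 0.13 without the doubted libraries (adjusted p = 0.000944). With only the arrays of both strains the adjusted p was 0.204, and with first-date arrays only it was 0.0759. That comparison includes the lowest spn2 value of the series, 11.75 in Δmst2 replicate 1, and without this array the difference was 0.29 (adjusted p = 0.091). Without Δgcn5 Δmst2 replicate 2 it was 0.47 (adjusted p = 0.0523). spn3, which encodes a further subunit of the ring, lay between 11.42 and 11.72 in all 24 arrays and passed in none of the 8 mutants. Over the 32 vegetative pairs the 95% intervals lay between -1.06 and 0.71, so larger changes than these were outside the intervals of all 4 genes.

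**Figure D4:**
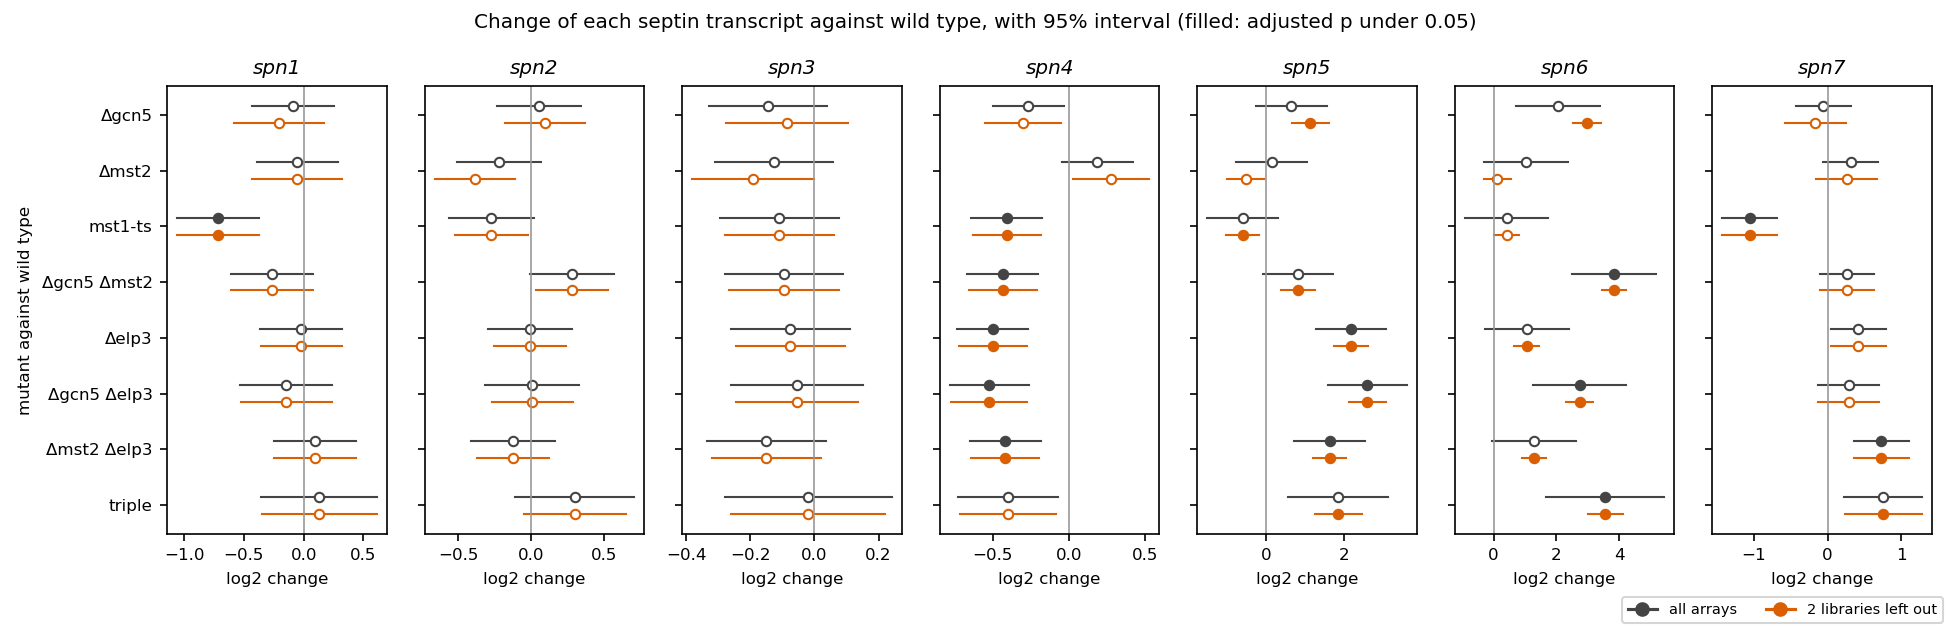
Change of each septin transcript in each mutant against wild type (log2, x axis, with its own range in each panel), with 95% intervals from limma, for all arrays and with the 2 doubted libraries left out. Filled points have an adjusted p under 0.05. spn5 and spn6 have the longest intervals with all arrays, with SEs of up to 0.90, and shorter ones without the 2 libraries.

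Among the interactions of gcn5 with elp3 and of mst2 with elp3, in which a kit effect that is the same in all strains cancels, no septin passed with all arrays (0.341% and 0.381% of features called). For spn6 the gcn5 with elp3 term was -0.37 ± 0.95 (95% interval -2.37 to 1.63). Without the doubted libraries this term was -1.28 ± 0.29 (adjusted p = 0.0421, 1.14% of features called), where the gcn5-lacking strain stood 2.97 above its counterpart with elp3 present and 1.68 above it with elp3 absent. With wild-type replicate 2 left out as well, the term was -1.20 ± 0.31 and did not pass (adjusted p = 0.106, 0.964% of features called). Among the strains of this term, Δgcn5 alone is named as h- with his3-D1, a difference that does not cancel there and was not tested. The mst2 with elp3 term of spn6 was 0.10 ± 0.28 without those libraries, and no septin passed in that interaction (0.462% called). In the same fit 27.3% of features were called in Δgcn5 Δelp3 against wild type, with spn4, spn5 and spn6 among them.

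The septins were set beside other genes of their pathways, in lists chosen from known roles. Among 7 listed septin ring partners is mid1, the anillin gene that places the division site. In mst1-ts it fell by 0.38 ± 0.12 (adjusted p = 0.0213), where 21.8% of all features fell. The list as a whole overlapped wild type, with array means of 10.75 to 10.98 in mst1-ts and 10.91 to 11.03 in wild type. Of 17 genes of the contractile ring, the actomyosin ring that drives division, 3 fell and none rose in mst1-ts, where 21.8% of all features fell and 13.7% rose, so the share of the list that fell was below that of all features. These were ain1 (alpha-actinin), by 0.96 ± 0.17, myp2 (a type II myosin), by 0.92 ± 0.26, and myo2 (the essential type II myosin), by 0.75 ± 0.20. In Δgcn5 Δmst2 none of the 17 passed. The median change of the contractile ring genes was -0.04 in mst1-ts, beside -0.07 over all features.

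Sporulation and meiosis genes were counted in the strains in which a meiotic septin passed, and the counts were not tested against each other. In Δgcn5, without the doubted libraries, 2 of 18 meiotic regulators rose, where 3.47% of all features rose and 2.61% fell. They were mei2, an RNA-binding inducer of meiosis, by 3.65 ± 0.36, and ste11, the transcription factor of sexual differentiation, by 2.32 ± 0.36. None of 22 recombination genes passed there, and of 9 forespore membrane genes none rose and spo3 fell by 0.66 ± 0.13. Of 23 mating and pheromone response genes 13 rose, and the list's median change was 1.24 beside -0.01 over all features. Mating type belongs with these counts, since the figure legends name an h- Δgcn5 strain and an h+ wild type. Its part in them was not tested.

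In Δgcn5 Δmst2, where spn6 was highest, 16 of the 23 mating genes rose, where 13.6% of all features rose and 11.3% fell. The Δgcn5 Δmst2 strain named in the figure legends is h+, like the wild type named there. Of the meiotic regulators 5 of 18 rose, led by mei2 (4.01 ± 0.81) and ste11 (3.19 ± 0.51). Of 9 forespore membrane genes 1 rose, meu14, which encodes a protein of the leading edge of that membrane, by 1.49 ± 0.22 (adjusted p = 0.000131). Of 9 spore wall genes 4 rose, including isp3, a spore coat protein (2.18 ± 0.36), and meu10 (2.09 ± 0.27).

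In Δelp3, where spn5 passed and spn6 did not with all arrays, 10 of 18 meiotic regulators and 11 of 22 recombination genes rose and none fell, where 13% of all features rose and 8.49% fell. Without the doubted libraries 10 regulators rose and 1 fell. The regulators that rose were led by spo6 (2.05 ± 0.21), a subunit of a meiotic kinase with Spo4, and by mei4 (1.93 ± 0.29), the forkhead factor of mid-meiotic genes. Not all regulators went up. The paper lists mei2, which rose in Δgcn5 and Δgcn5 Δmst2, as down-regulated in Δelp3. With all arrays that fall did not pass here. The recombination genes were led by rec24 (1.19 ± 0.20) and rec8, the meiotic cohesin (1.11 ± 0.19). Of the mating genes 3 rose and 2 fell, and meu14 rose by 1.09 ± 0.22 (adjusted p = 0.00222). The lists' medians were 0.58 for the regulators and 0.47 for recombination, beside 0.02 over all features. These comparisons carry the kit as well.

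In mst1-ts, where spn7 fell, 9 of 18 meiotic regulators and 6 of 9 spore wall genes rose and none of either list fell. Of all features 13.7% rose there and 21.8% fell. isp3 rose by 5.36 ± 0.36 (adjusted p = 2.66e-09). Of the forespore membrane genes spo3 rose and spo14, spo15 and spo20 fell.

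**Figure D5:**
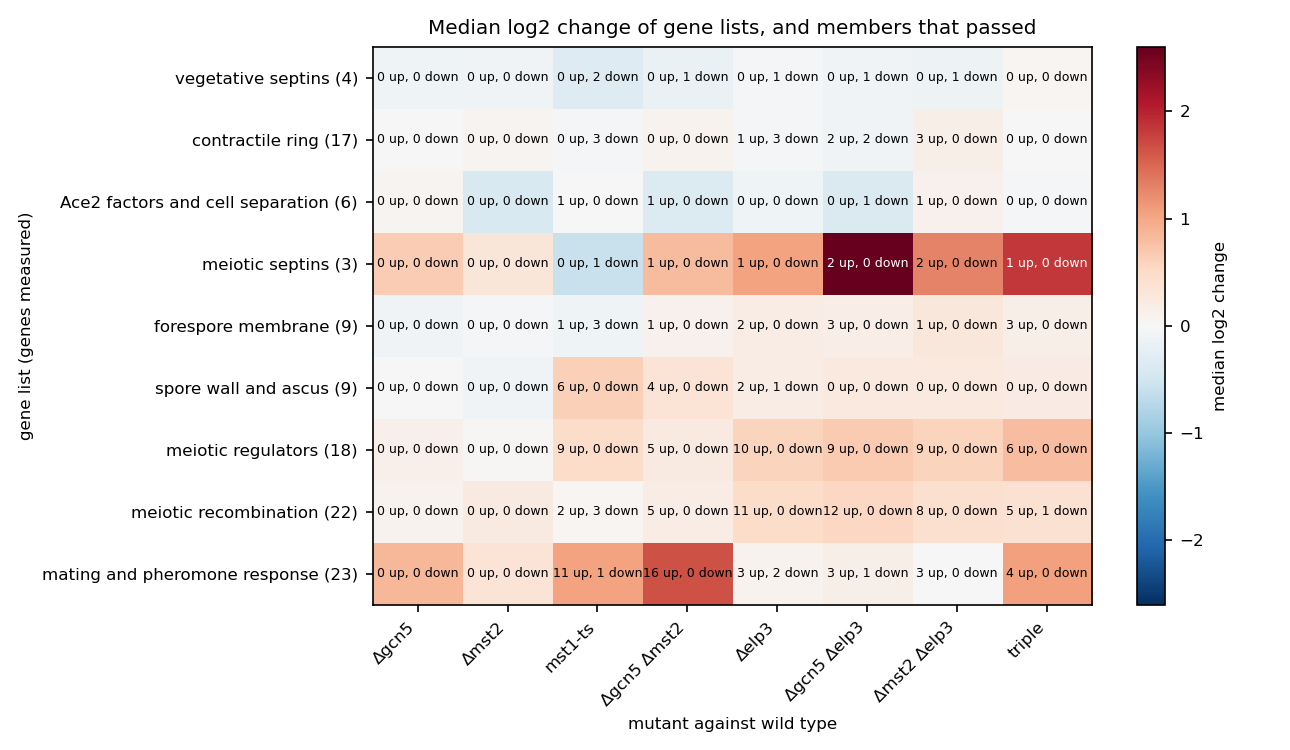
Median log2 change (colour) of each gene list (y axis, with the number of genes measured) in each mutant against wild type (x axis), with all arrays. The text in each cell gives how many members rose and fell at an adjusted p under 0.05. The mating list has the most members up in Δgcn5 Δmst2 (16 of 23), and the recombination list in Δgcn5 Δelp3 (12 of 22).

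The nearest named genes on either side of each septin gene were compared in the same fits. spn6 lies directly between prp45 and dcr1 in gene order, and with all arrays neither passed in any of the 8 mutants. Beside spn5, mrp10 (2 genes away) fell in Δelp3 by 0.61 (adjusted p = 0.0299) and in Δmst2 Δelp3 by 0.79 (adjusted p = 0.00738), where spn5 rose. Of all features, 8.49% fell in Δelp3, and 458 of 4981 fell in Δmst2 Δelp3. Values of sub1, on the other side of spn5, and of the neighbours of spn1 to spn4 are not given here. On the sides of spn7, ppk24 (the next gene) and meu22 (5 genes away) rose in mst1-ts, by 1.38 and 1.45, while spn7 fell. There 13.7% of all features rose. Among 2898 named genes, those most like each septin over the 24 arrays were cul1, dot2 and pub2 for spn6 (r = 0.94, 0.91 and 0.90), eme1, pof3 and apn2 for spn5 (0.93, 0.91 and 0.91) and prp18, ain1 and kpa1 for spn7 (0.91, 0.91 and 0.91). For the vegetative members they were nup44 for spn1 (0.88), exo70 for spn2 (0.88), spf30 for spn3 (0.65) and tho7 for spn4 (0.92).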

How the data were processed

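Each deposited value is the log2 intensity of a probe set on an Affymetrix Yeast Genome 2.0 array. The authors computed it by RMA, which corrects background, quantile-normalizes the arrays and summarises probes, and tested with limma. For neither tool was a version given in the sources used here. Values ran from 4.85 to 15.35, with array medians of 10.99 to 11.08. The methods and the labels differ in the growth temperature and amount of RNA they give. RNA was measured in 24 arrays of 9 strains.

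Of 5028 probe sets, 29 controls and 18 further probe sets of a gene with a brighter one were left out. This left 4981 features, 2899 of them with a gene symbol. Through RefSeq, the symbols of 113 probe sets were updated. A limma model (version 3.58.1, under R 4.3.3) held 1 coefficient per strain and all 24 arrays, which left 15 residual degrees of freedom, and two-sided p-values were adjusted over all features by the Benjamini-Hochberg method. The fit was tested on simulated data. The contrasts were each mutant against wild type, mutants within 1 kit, and 3 interactions. RMA values hold no detection call, so whether a dim probe set was above background is not known here. Levels of different probe sets were not compared, except that wild-type spn5 and spn6 were set beside the values of the deleted genes. The number of arrays limits the precision.

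The members and gene lists were chosen with earlier results of these data known. Named were the 7 septins, per list and contrast at most the 4 changed members with the largest change, the genes most correlated with each septin, and genes that check the labels. The neighbours of the septin genes were added. Alternatives covered normalization, filters, date, replicate block, array weights, variance model, threshold and left-out libraries. Lists that hold an item withheld here are not reported. Same-numbered replicates of different strains were not paired.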

Additional observations from a re-analysis of the deposited data

Results flagged for a closer look

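The difference between the effects of gcn5 loss on spn6 with and without elp3 stood out in a test of the difference itself. Without the library labelled Δgcn5 replicate 2 and the library labelled Δmst2 replicate 2, the interaction term was -1.28 ± 0.29 on the log2 scale (limma, adjusted p = 0.0421). It is the difference between a rise of 2.97 in Δgcn5 against wild type and one of 1.68 in Δgcn5 Δelp3 against Δelp3, over 2 arrays of each strain lacking gcn5 and 3 of each of the others. With all arrays the term was -0.37 ± 0.95, and it did not pass. With wild-type replicate 2 left out beside the 2 doubted libraries it was -1.20 ± 0.31 (adjusted p = 0.106), and it passed in no alternative that kept this gene other than the fit without just those 2. The replacement of 1 kit by the other cancels in this term only where it acts alike in strains with and without gcn5, which was not tested. By the figure legends and strain list, Δgcn5 was h- with his3-D1. Wild type, Δelp3 and Δgcn5 Δelp3 were h+ without it. That difference does not cancel in the term, and its part was not tested.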

How the results depend on the processing

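With 36 alternatives at the adjusted p threshold, the 56 septin changes against wild type gave 1964 values, of which 1889 kept their side of the threshold, 18 lost a call, 57 gained one and none reversed. The sign changed in 35 values that passed in neither fit. Leaving out features with a mean below 10.01 removed spn5, spn6 and spn7, so the meiotic members have no value there, and first-date fits cover only strains with first-date arrays.

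Counts of septins called moved as follows, first for the meiotic and then for the vegetative septins. With all arrays the meiotic counts were 0 in Δgcn5 and Δmst2, 1 in Δelp3, mst1-ts, Δgcn5 Δmst2 and the triple mutant, and 2 in Δgcn5 Δelp3 and Δmst2 Δelp3. Without the 2 doubted libraries they were 2 in Δgcn5, Δelp3, mst1-ts and Δgcn5 Δmst2 and 3 in Δmst2 Δelp3 and the triple mutant (2 in the triple mutant when wild-type replicate 2 was left out as well). With date as a covariate they were 0 in the 4 strains lacking elp3, and the vegetative counts there 0, instead of 1 in the 3 of them other than the triple mutant. With only the arrays of the contrast the counts were 2 in Δelp3 and 3 in Δmst2 Δelp3, and with trend and robust variance that in the triple mutant was 2. The methods name a fold threshold in log2 units, while supplementary titles give the same number as a ratio. Required as a ratio, it gave a meiotic count of 0 in mst1-ts and Δmst2 Δelp3 and a vegetative count of 0 in each mutant. Required in log2 units, a reading added after the results were seen, it also gave 0 meiotic septins in Δelp3 and Δgcn5 Δelp3 and left spn6 in Δgcn5 Δmst2 and the triple mutant. By unadjusted p the meiotic counts were 1 in Δgcn5, 2 in Δelp3 and 3 in the triple mutant, and the vegetative counts 1 in Δgcn5 and the triple mutant. On the first date only, the vegetative count in Δgcn5 Δmst2 was 0 (spn4, adjusted p = 0.0783).

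Leaving out 1 array at a time, the meiotic counts ran from 0 to 1 in Δgcn5 and from 1 to 2 in Δelp3, Δgcn5 Δmst2, Δgcn5 Δelp3, Δmst2 Δelp3 and the triple mutant. The vegetative counts ran from 1 to 3 in mst1-ts, from 0 to 2 in Δgcn5 Δmst2, and from 0 to 1 in Δgcn5 Δelp3, Δmst2 Δelp3 and the triple mutant. Without Δgcn5 replicate 2 alone, spn6 in Δgcn5 was 2.97 (adjusted p = 0.00691). Without Δgcn5 Δmst2 replicate 1, spn7 passed in Δelp3, Δgcn5 Δmst2 and the triple mutant (adjusted p = 0.0395, 0.0292 and 0.0201). Without Δmst2 replicate 1, spn2 passed in mst1-ts (0.0283) and Δgcn5 Δmst2 (0.0319), and spn4 (0.0352) and spn5 (0.047) in the triple mutant. There, spn5 also passed without Δgcn5 replicate 2 (0.0288) or Δmst2 replicate 2 (0.0087) or 3 (0.0441), and spn7 without replicate 3 of Δgcn5 (0.0391) or of Δgcn5 Δmst2 (0.041). Without either array of Δgcn5 Δelp3, spn4 there had adjusted p = 0.0678 or 0.0549, and the remaining array was assumed to vary like the other groups.

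Array weights by limma's default method stopped before convergence. They gave meiotic counts of 2 in Δgcn5 and 3 in Δelp3, Δgcn5 Δmst2, Δmst2 Δelp3 and the triple mutant, vegetative counts of 1 in Δgcn5 and Δmst2, 3 in mst1-ts and 2 in Δgcn5 Δmst2, Δmst2 Δelp3 and the triple mutant, and up to 3671 features called in a contrast. They also turned spn7 in Δgcn5 Δmst2 against Δmst2 to 0.18 (adjusted p = 0.0461) from -0.05. A gene-by-gene version, chosen after these results were seen, gave meiotic counts of 1 in Δgcn5, 2 in Δelp3 and Δgcn5 Δmst2 and 3 in Δmst2 Δelp3 and the triple mutant, and vegetative counts of 3 in mst1-ts, 2 in Δgcn5 Δmst2 and 1 in the triple mutant. The cause of these shifts was not tested.

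Same-numbered replicates did not deviate together (77 pairs, r from -0.70 to 0.56, median -0.01). With a replicate block, spn7 passed in the triple mutant (0.86, adjusted p = 0.0412), a meiotic count of 2, and no other septin call changed.

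The number of all features called, with its range over the alternatives at the same threshold, was 6 (range 0 to 1285) in Δgcn5, 8 (range 0 to 1506) in Δmst2, 1069 (range 127 to 2319) in Δelp3, 1771 (range 1187 to 3136) in mst1-ts, 1238 (range 429 to 2933) in Δgcn5 Δmst2, 1070 (range 131 to 2937) in Δgcn5 Δelp3, 1089 (range 84 to 2343) in Δmst2 Δelp3 and 586 (range 74 to 1973) in the triple mutant against wild type. It was 55 (range 12 to 824) in Δgcn5 Δelp3 against Δelp3, 38 (range 2 to 112) in Δmst2 Δelp3 against Δelp3, 473 (range 317 to 1833) in the triple mutant against Δelp3, 371 (range 77 to 2579) in Δgcn5 Δmst2 against Δgcn5 and 1403 (range 73 to 3671) in Δgcn5 Δmst2 against Δmst2, and 69 (range 13 to 2165) in the gcn5 with mst2 interaction, 17 (range 3 to 627) in the gcn5 with elp3 interaction and 19 (range 1 to 242) in the mst2 with elp3 interaction. The array weights gave the highest count in each of these comparisons. Depth is not defined for arrays, and the number of arrays limits these counts.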
